A study of Homo sapiens with 6 samples.

Results

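The genes described here are 38 genes of glucose use and the low-oxygen response: 17 glycolytic enzymes, 3 PFKFB kinases, 3 pyruvate dehydrogenase kinases, 4 glucose and lactate transporters, 2 glucose-responsive arrestins and 9 other hypoxia genes. They were chosen by name and known role, with earlier results of these data known, out of 20046 genes with a probe on the array. Of the 38, 35 had a named probe, with 60 probes in all, and 34 passed the filter on dim probes. CA9, SLC16A1 and SLC16A3 had no probe with that symbol in the annotation, so their expression was not analysed here. The only probe of PDK1 lay above percentile 40 of its array on 2 of 6 arrays and was not tested. Its intensities were 43.4, 54.0 and 50.6 on the DMSO arrays and 37.7, 38.2 and 39.6 on the TIC10 arrays.

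The RNA came from HCT116, a human colorectal carcinoma line, in its p53-null form, which both groups share, and was read on Illumina bead arrays. One group received 10 µM TIC10, a small molecule also called ONC201, in fresh complete medium. The other received 0.05% DMSO, the solvent, and both were harvested at 48 h. Each group had 3 arrays, and the labels do not say that they came from separate cultures, so every p-value rests on a spread between arrays that could be technical alone.

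Glycolysis splits glucose into pyruvate. Glucose enters through facilitative transporters, hexokinase traps it as a phosphate, the middle enzymes cut it and oxidise it, and lactate dehydrogenase turns pyruvate into lactate. The transcription factor HIF-1 (HIF1A with ARNT) raises many of these genes in low oxygen together with genes of other roles, such as BNIP3 in mitophagy and ADM, a vasodilator peptide. HIF-1 and MYC family factors bind related short sequences in promoters. A second sensor, MondoA with MLX, responds to glucose phosphate and is known for its targets TXNIP and ARRDC4, arrestins that restrain glucose uptake.

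The arrays were not alike in brightness. In the deposited intensities 44.3% of all genes had all TIC10 arrays below all DMSO arrays, and 3.91% had them above. Groups apart in that direction before normalization were thus common. The summed intensity ran from 11610000 to 19130000, and was highest on DMSO replicate 3. On that array 915 of the 29441 kept probes lay over 2-fold from the mean of the other DMSO arrays after normalization, against 114 to 150 on the other DMSO arrays and 4 to 12 on the TIC10 arrays. Among the 34 tested genes, 7 lay that far off on DMSO replicate 3 and 0 on each other array, so results are given with and without it. The epithelial markers EPCAM, KRT8, KRT19 and CDH1 read an intensity of at least 838 on every array, whereas VIL1 failed the filter. KRT18 was dim, at 143.8, 146.3 and 46.6 in DMSO and 142.9, 157.5 and 164.9 in TIC10, and KRT19 rose by 0.39 (limma adjusted p = 0.0286). Of 9 immune, endothelial and stromal markers, CD3E, PECAM1, VWF and LUM failed the filter. The 9 summed to an intensity of 640.6 to 726.2 on DMSO arrays and 1043.5 to 1231.2 on TIC10 arrays. CD68, a lysosomal protein abundant in macrophages, accounted for much of that sum, reading 353, 313 and 242 against 781, 699 and 889 at its brightest probe, and 215.5, 146 and 151 against 180, 199 and 210 at the next. The part of CD68 in any result was not tested. An array reads a whole culture, so a lower level in every cell and fewer cells that make the transcript cannot be told apart.

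Of the 17 glycolytic enzymes, all tested, 9 fell and 1 rose with TIC10. Those that fell were PFKM, ALDOC, TPI1, GAPDH, PGK1, PGAM1, ENO1, ENO2 and LDHA, and the 1 that rose was HK2. These falls ran from 0.28 to 1.61 on the log2 scale. The test was limma's moderated test on normalized log2 intensity, with Benjamini-Hochberg adjustment over 14534 genes. At an adjusted p under 0.05 it called 10.4% of all genes higher and 13.4% lower, 23.8% in all. The median change over the glycolytic enzymes was -0.40, beside -0.01 over all genes, and 16 of the 17 changes were below 0. The same fit without DMSO replicate 3 called 1 glycolytic enzyme higher and 10 lower, where 16.2% of all genes were called higher and 19.1% lower.

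**Figure D1:**
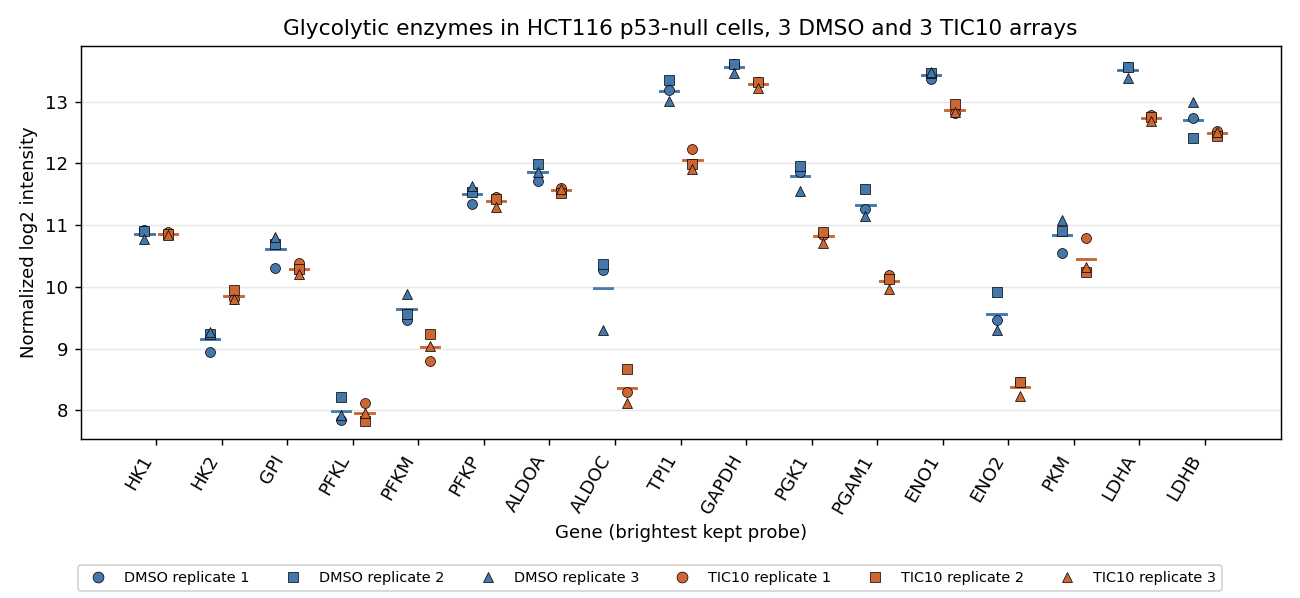
Normalized log2 intensity (vertical axis) of the 17 glycolytic enzymes on each of 6 arrays, in pathway order, with blue symbols for DMSO, orange symbols for TIC10, 1 symbol shape per replicate and a bar at each group mean. TPI1, PGK1, PGAM1, ENO2 and LDHA show the 3 TIC10 arrays below all DMSO arrays, HK2 shows them above, and HK1 shows the groups overlapping.

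The hexokinases, which trap glucose in the cell, parted. HK2, the inducible form, read an intensity of 500, 535 and 949 on DMSO replicates 1 to 3 and 655, 731 and 781 on the TIC10 arrays. In the deposited intensities the groups overlapped, because DMSO replicate 3 was the highest of all. After normalization HK2 read 8.95, 9.24 and 9.27 in DMSO and 9.80, 9.95 and 9.81 in TIC10, and no longer overlapped. It rose by 0.70 ± 0.11 (SE, n = 3 and 3), with a limma adjusted p of 0.00496, and its second probe gave 0.72. The rise depended on the scaling: with arrays brought only to one median it was 0.24, with a limma adjusted p of 0.552, and with DMSO replicate 3 also left out it was 0.51, which passed (limma adjusted p = 0.0107). HK1, the housekeeping form, read 10.92, 10.90 and 10.77 against 10.89, 10.86 and 10.83, and its change of 0.00 ± 0.08 did not pass the limma test (adjusted p = 0.996).

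Of the next steps of the upper pathway, 1 of 4 genes fell. GPI, which turns glucose 6-phosphate into fructose 6-phosphate, changed by -0.31 ± 0.14 and did not pass (limma adjusted p = 0.167). Among the phosphofructokinases, which commit sugar to the pathway, PFKL changed by -0.03 and PFKP by -0.11, with limma adjusted p of 0.915 and 0.511. PFKM, the muscle-type subunit, read 9.47, 9.57 and 9.89 in DMSO and 8.81, 9.24 and 9.04 in TIC10, so the groups were apart. It fell by 0.61 ± 0.15 (limma adjusted p = 0.0288). That call was lost when DMSO replicate 2, TIC10 replicate 1 or TIC10 replicate 3 was left out, with limma adjusted p from 0.0682 to 0.0994.

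The aldolases cut the 6-carbon sugar, and of their 2 measured forms 1 fell. ALDOC, the brain-type form, read an intensity of 1276, 1186.5 and 974 in DMSO and 228, 299 and 235 in TIC10. All 3 TIC10 arrays lay below the lowest DMSO array by a wide margin. Its normalized level was 9.98 ± 0.59 (SD, n = 3) in DMSO and 8.37 ± 0.28 (SD, n = 3) in TIC10. ALDOC fell by 1.61 ± 0.30 (SE), a 3.06-fold difference with a limma adjusted p of 0.00988. Without DMSO replicate 3 its change was -1.925. ALDOA, the main form of most tissues, changed by -0.29 ± 0.09 and did not pass (limma adjusted p = 0.0615), although without DMSO replicate 3 it passed (-0.30, adjusted p = 0.0474). A second ALDOA probe read 5939, 6839 and 397 in DMSO and 3666, 3339 and 3755 in TIC10. DMSO replicate 3 was far below every other array there, and the change at that probe was 0.84 ± 1.21.

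The triose and phosphoglycerate steps held 4 of the enzymes that fell. TPI1, which interconverts the triose phosphates, read an intensity of 8731, 9373 and 10412 in DMSO and 3911.5, 3334 and 3585 in TIC10. No TIC10 array came near a DMSO array, and TPI1 fell by 1.13 ± 0.13 (2.19-fold, limma adjusted p = 0.00155). PGK1, the first ATP-making enzyme of the pathway, read 3744, 3609 and 4702 against 1379, 1457 and 1491. It fell by 0.97 ± 0.12 (limma adjusted p = 0.00233), and its second probe gave a change of -1.46. PGAM1, phosphoglycerate mutase, read 2510, 2764 and 3655 against 867, 829 and 888.5.

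PGAM1 fell by 1.23 ± 0.13 at that probe (2.35-fold, limma adjusted p = 0.00119). A second PGAM1 probe read 1338, 1413.5 and 219 in DMSO and 299, 352 and 369 in TIC10, so DMSO replicate 3 was again the lowest of all. With the mean of both probes in place of the brightest, the change was -0.96 and did not pass (limma adjusted p = 0.173). PGAM4, a near-identical copy of PGAM1, changed by -1.08 at its own probe, and how far probes of the pair bind both transcripts was not tested. GAPDH, the oxidising step and a common reference gene, read 12472, 12085 and 12625 against 9695, 9914.5 and 10135. Its groups did not overlap, but its fall of 0.28 ± 0.08 was small (limma adjusted p = 0.0440). That call was lost when any array other than DMSO replicate 3 was left out, with limma adjusted p from 0.100 to 0.143, and its other probes gave -0.51 and -0.15. Cyclic loess gave -0.11 (limma adjusted p = 0.590), and 4 of 18 alternatives called GAPDH.

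Both enolases, which make phosphoenolpyruvate, fell. ENO1, the widespread form, read an intensity of 10062, 10252.5 and 12640 in DMSO and 6216, 7483 and 7363 in TIC10. ENO2, the neuronal form, read 725, 869 and 970 against 259, 254 and 254. ENO2 on TIC10 arrays varied little and lay far below every DMSO array. ENO1 fell by 0.56 ± 0.08 (limma adjusted p = 0.00361) and ENO2 by 1.17 ± 0.17 (limma adjusted p = 0.00392). Levels of different probes are not compared, since brightness depends on the probe.

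At the end of the pathway LDHA and LDHB, the subunits of lactate dehydrogenase, were not alike in outcome. LDHA, the subunit that favours lactate formation, read an intensity of 11973, 11614 and 12241 in DMSO and 6176, 6187 and 6624 in TIC10. Within each treatment its arrays lay close together, and the groups were far apart. LDHA fell by 0.77 ± 0.08 (1.70-fold, limma adjusted p = 0.00133), and its other probes gave -0.92 and -0.45. LDHB changed by -0.22 ± 0.15 (limma adjusted p = 0.351). PKM, pyruvate kinase, changed by -0.40 ± 0.19 (limma adjusted p = 0.193), with 10.55, 10.91 and 11.08 in DMSO and 10.80, 10.24 and 10.32 in TIC10, so its groups overlapped.

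Promoter sequences are shown for 6 of the genes, with different outcomes, so that a short core that known factors of this pathway bind can be seen in place. Each runs from 250 bases before to 50 bases after the gene's start, 5′ to 3′ on the gene's strand, as RefSeq gives it for assembly GRCh38.p14. Capitals mark every match to ACGTG, a form of the core of the HIF-1 element, on either strand, where it reads CACGT. The E-box CACGTG, read by MYC and MondoA family factors, holds both and so counts under both. The form GCGTG was not searched for and is not marked, although some of the windows hold it. LDHA (chr11:18394313-18394612, plus strand), PGK1 (chrX:78103998-78104297, plus strand) and ALDOC (chr17:28576846-28577145, minus strand) stand for glycolytic enzymes that fell, and HK2 (chr2:74833877-74834176, plus strand) is the enzyme that rose. ANKRD37 (chr4:185396591-185396890, plus strand) is a hypoxia gene that fell, and ARRDC4 (chr15:97960453-97960752, plus strand) is a MondoA target.
LDHA: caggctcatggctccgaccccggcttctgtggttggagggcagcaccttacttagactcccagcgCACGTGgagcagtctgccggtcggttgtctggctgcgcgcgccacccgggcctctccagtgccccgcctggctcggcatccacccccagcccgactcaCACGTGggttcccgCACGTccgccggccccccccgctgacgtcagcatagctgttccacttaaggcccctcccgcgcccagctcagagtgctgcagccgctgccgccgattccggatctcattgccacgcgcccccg
PGK1: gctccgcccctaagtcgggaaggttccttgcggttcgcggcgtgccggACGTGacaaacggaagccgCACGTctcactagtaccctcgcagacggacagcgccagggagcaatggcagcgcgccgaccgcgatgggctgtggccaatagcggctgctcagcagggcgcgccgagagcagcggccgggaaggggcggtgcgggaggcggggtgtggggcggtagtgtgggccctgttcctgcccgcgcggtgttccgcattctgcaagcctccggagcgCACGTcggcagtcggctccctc
ALDOC: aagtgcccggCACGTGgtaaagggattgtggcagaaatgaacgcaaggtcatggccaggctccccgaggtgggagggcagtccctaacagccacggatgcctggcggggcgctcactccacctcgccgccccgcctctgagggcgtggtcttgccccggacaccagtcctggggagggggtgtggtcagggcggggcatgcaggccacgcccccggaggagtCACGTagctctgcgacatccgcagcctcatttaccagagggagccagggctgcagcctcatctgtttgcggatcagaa
ANKRD37: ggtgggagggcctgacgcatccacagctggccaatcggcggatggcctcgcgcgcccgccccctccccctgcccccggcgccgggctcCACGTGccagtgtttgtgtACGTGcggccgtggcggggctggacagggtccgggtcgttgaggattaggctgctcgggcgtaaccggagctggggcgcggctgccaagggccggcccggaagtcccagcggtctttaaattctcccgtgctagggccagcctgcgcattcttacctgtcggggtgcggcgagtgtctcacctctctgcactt
HK2: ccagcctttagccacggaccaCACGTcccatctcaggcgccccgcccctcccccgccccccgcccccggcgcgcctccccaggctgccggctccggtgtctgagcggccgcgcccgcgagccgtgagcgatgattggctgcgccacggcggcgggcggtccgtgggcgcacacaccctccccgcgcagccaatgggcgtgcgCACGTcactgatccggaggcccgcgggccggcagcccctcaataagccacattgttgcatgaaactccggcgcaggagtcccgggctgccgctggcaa
ARRDC4: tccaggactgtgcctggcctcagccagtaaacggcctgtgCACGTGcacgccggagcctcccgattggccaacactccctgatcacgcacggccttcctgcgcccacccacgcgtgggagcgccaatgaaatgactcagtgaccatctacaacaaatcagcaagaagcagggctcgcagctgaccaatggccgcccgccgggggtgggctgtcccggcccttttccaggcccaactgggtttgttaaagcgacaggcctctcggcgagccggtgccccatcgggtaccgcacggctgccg

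The ACGTG core was found in 14 of the 33 members with a promoter in the table, 42.4%, and in 21.6% of all 27305 promoters of that length. It was in 8 of 17 glycolytic enzymes and in 4 of 7 other hypoxia genes. CA9, PDK1 and SLC16A3, whose expression was not tested, are among the 33, and CA9 held the core. By outcome, 7 of 13 members that fell held the core, as did 5 of 16 that did not pass and 1 of 3 not tested. Of the members that rose, HK2 held it, and NDRG1 had no promoter in the table. The E-box was in 6 of 33 members, 18.2%, against 7.43% of all promoters. The window of LDHA held 5 matches, those of PGK1, ALDOC and ANKRD37 held 3 each, and those of HK2 and ARRDC4 held 2 each, E-boxes counted on both strands. The members were chosen partly for being known HIF targets, so these shares are a description. A match is not a bound site, and a window without a match may still hold the GCGTG form, which was not counted.

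Of the regulators of glycolysis, PFKFB4 and PDK3 fell. PDK3, one of the kinases that switch off pyruvate dehydrogenase, read an intensity of 524, 482 and 722 in DMSO and 131, 123 and 138 in TIC10. Every TIC10 array was far below every DMSO array. Its normalized level was 9.01, 9.10 and 8.90 in DMSO and 7.53, 7.46 and 7.44 in TIC10. PDK3 fell by 1.52 ± 0.08 (2.87-fold), with a limma adjusted p of 0.000188, the smallest among the 34 tested genes. Its second probe gave -0.93. PDK4, another of these kinases, was dim at 6.42 ± 0.05 (SD, n = 3) in DMSO and changed by -0.10 (limma adjusted p = 0.490).

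The PFKFB enzymes set the level of fructose 2,6-bisphosphate, the activator of phosphofructokinase. PFKFB4 read an intensity of 1032, 814.5 and 681 in DMSO and 210, 262 and 249 in TIC10, with the groups well apart. It fell by 1.24 ± 0.30 (limma adjusted p = 0.0250), and by 1.57 without DMSO replicate 3. The call was lost when any other array was left out, with limma adjusted p from 0.0581 to 0.0944. PFKFB3 changed by -0.29 ± 0.09 (limma adjusted p = 0.0669) and PFKFB2 by 0.14 ± 0.11 (limma adjusted p = 0.416). Over the 3 genes, 1 fell, and none of the other changes passed.

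Both measured transporters were glucose carriers. SLC2A1 (GLUT1), the basal carrier of most cells and a known HIF target, read an intensity of 3120, 2774 and 3047 in DMSO and 783.5, 1130 and 981 in TIC10. The groups did not overlap, and SLC2A1 fell by 1.12 ± 0.22 (2.18-fold, limma adjusted p = 0.0120). Without TIC10 replicate 1 or TIC10 replicate 3 its limma adjusted p was 0.0559 or 0.0539. SLC2A3 (GLUT3), a high-affinity carrier, read 869, 659.5 and 482 against 484, 505 and 548. Its DMSO arrays spanned the TIC10 arrays, and its change was 0.16 ± 0.33 (limma adjusted p = 0.787). Without DMSO replicate 3 the same value was -0.25 (limma adjusted p = 0.0674).

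The arrestins gave little signal in the bead table. TXNIP, an inhibitor of thioredoxin and of glucose uptake, read between 40.8 and 46.9 on all arrays, close to the dimmest probes, and passed the filter on 4 of 6 arrays. ARRDC4, its relative, read 94.3, 85.4 and 72.1 in DMSO and 58.9, 53.6 and 64.2 in TIC10. On the normalized scale its groups overlapped, with a change of -0.21 ± 0.13 (limma adjusted p = 0.311). Without DMSO replicate 3 the change was -0.32 and passed (limma adjusted p = 0.0188). The authors' processed values for the same probe were 0.03, -0.03 and -0.34 in DMSO and 0.64, 1.16 and 0.71 in TIC10, a change of 0.95 (limma adjusted p = 0.00154). The deposited tables therefore gave ARRDC4 opposite signs, and no direction is assigned to it here. Of the 3 kept arrestin probes, limma called 2 higher in the processed values, both of ARRDC4, and 0 in either direction in the bead table.

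Of the 9 other hypoxia genes, 8 were tested, and 1 rose and 1 fell. The one that rose was NDRG1, a stress-responsive gene that low oxygen induces. It read an intensity of 2615, 2045 and 1110 in DMSO and 3996.5, 4655 and 5078 in TIC10, with all TIC10 arrays above all DMSO arrays. Of the 34 tested genes it was the only one with that order in the deposited intensities, where 27 had all TIC10 arrays below. Over all genes that share was 44.3% below and 3.91% above. After normalization DMSO replicate 3 stood apart, with 11.32, 11.16 and 9.49 in DMSO and 12.27, 12.41 and 12.34 in TIC10. NDRG1 rose by 1.69 ± 0.46 (limma adjusted p = 0.0392), and by 1.16 without DMSO replicate 3 (limma adjusted p = 5.09e-05).

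ANKRD37, an ankyrin-repeat protein and known HIF target, was the one that fell. It read an intensity of 591, 558 and 370 in DMSO and 134, 145 and 170 in TIC10, with the groups apart. It fell by 1.18 ± 0.32 (limma adjusted p = 0.0376), and by 1.54 without DMSO replicate 3 (limma adjusted p = 1.20e-05). The calls of NDRG1 and ANKRD37 were both fragile. That of NDRG1 was lost without DMSO replicate 2 (limma adjusted p = 0.0545) or without any single TIC10 array (0.117 to 0.118). That of ANKRD37 was lost without any array but DMSO replicate 3 (limma adjusted p from 0.0996 to 0.125).

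Whether BNIP3 and ADM passed depended on DMSO replicate 3 and on the processing. BNIP3, a mitophagy receptor, read an intensity of 1602, 1620 and 1531 in DMSO and 540, 578 and 828 in TIC10. The groups were apart, and the change was -0.77 ± 0.23 (limma adjusted p = 0.0564). ADM read 2468, 2187 and 1827 against 740, 917 and 1088, with a change of -0.72 ± 0.29 (limma adjusted p = 0.128). On the normalized scale DMSO replicate 3 of ADM lay at 10.17, beside 11.23 and 11.25 on the other DMSO arrays, and overlapped with TIC10. Left out, it gave changes of -1.02 for BNIP3 and -1.08 for ADM, with limma adjusted p of 0.000399 and 0.000154. With all 6 arrays both also passed under one-median scaling, at 0.0109 and 0.0151 by limma, and BNIP3 passed under cyclic loess, the stricter filter and the intensity trend (limma adjusted p from 0.0344 to 0.0482).

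The remaining 4 hypoxia genes did not pass. P4HA1, a collagen prolyl hydroxylase subunit, changed by -0.20 ± 0.29 (limma adjusted p = 0.689), and by -0.54 without DMSO replicate 3, where it passed (limma adjusted p = 0.00469). KDM3A, a histone demethylase, changed by -0.02, and BNIP3L, the relative of BNIP3, by 0.14, with limma adjusted p of 0.960 and 0.680. EGLN3, a HIF prolyl hydroxylase, read 37.3 to 54.0 on all arrays, close to the dimmest probes, and passed the filter on 4 of 6 arrays.

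**Figure D2:**
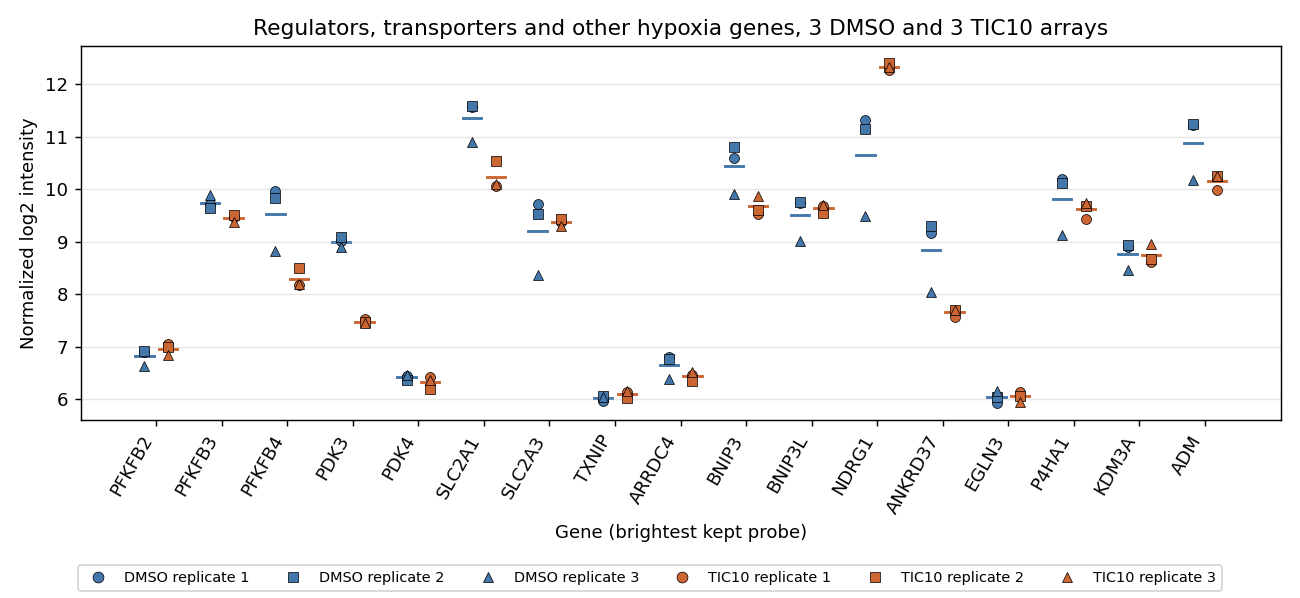
Normalized log2 intensity (vertical axis) of the tested regulators, transporters, arrestins and other hypoxia genes on each of 6 arrays, with blue symbols for DMSO, orange symbols for TIC10, 1 symbol shape per replicate and a bar at each group mean. PDK3 has the groups far apart with little spread, while DMSO replicate 3 of NDRG1, ADM and P4HA1 lies about 1 unit or more below the other DMSO arrays.

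Set side by side, 9 of 17 glycolytic enzymes and 1 of 8 other hypoxia genes fell, and 1 of each rose, beside 13.4% of all genes lower and 10.4% higher. The count of the other hypoxia genes was thus near that of all genes. The median change was -0.40 over the glycolytic enzymes and -0.11 over the other hypoxia genes, whose changes ran from -1.18 to 1.69. The gap narrowed without DMSO replicate 3, where the medians were -0.36 and -0.35, with 10 of 17 and 4 of 8 lower. In that fit ANKRD37, BNIP3, ADM and P4HA1 fell and NDRG1 rose, and 35.3% of all genes were called. The difference between the lists was not tested, since both were chosen with results known. By order alone, 10 of 17 glycolytic enzymes and 2 of 8 other hypoxia genes had all TIC10 arrays below all DMSO arrays after normalization, beside 23.1% of all genes. All TIC10 arrays lay above in 1 of each list, beside 18.5% of all genes.

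**Figure D3:**
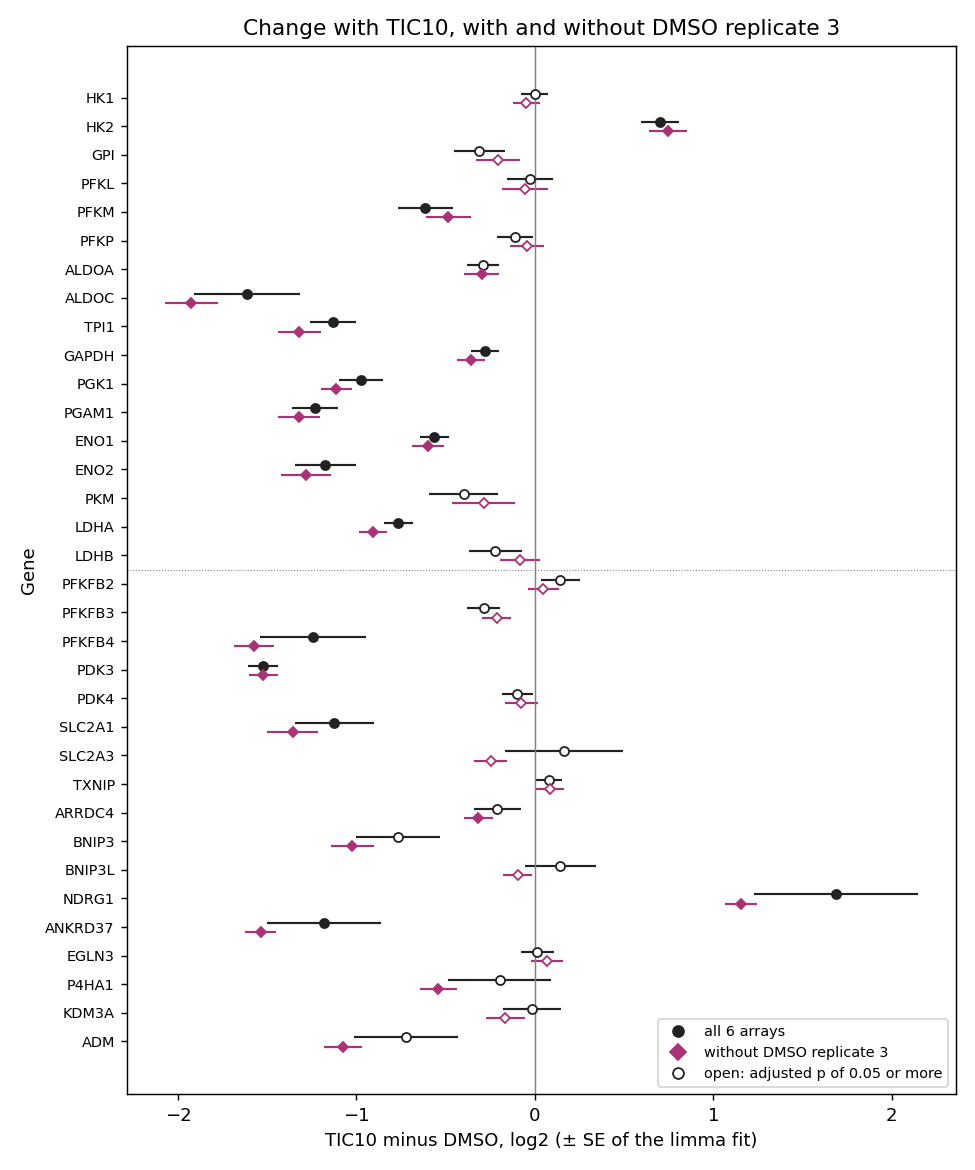
TIC10 minus DMSO change in log2 intensity (horizontal axis) for the 34 tested genes grouped by role, from all 6 arrays with its standard error and from the arrays without DMSO replicate 3, with filled symbols for an adjusted p under 0.05. With all 6 arrays ALDOC, PDK3 and PFKFB4 lie furthest left and NDRG1 furthest right, and leaving out DMSO replicate 3 moves NDRG1 from 1.69 to 1.16 and ADM from -0.72 to -1.08.

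Scaling moved the balance of calls. Over all genes 1513 rose and 1950 fell after quantile normalization, and 315 and 1996 with arrays brought only to one median, where the median of all genes was -0.15 in place of -0.01. Under that scaling 0 glycolytic enzymes were called higher and 7 lower, with a median of -0.77. At an unadjusted p under 0.05 by limma, 0 were higher and 13 lower, beside 684 and 3873 of 14534 genes. Of the other hypoxia genes 3 were called lower and 1 higher, with a median of -0.53, where 2.17% of all genes were higher and 13.7% lower, 15.9% in all. Beside that shift of all genes, the change was 0.24 for HK2, 1.38 for NDRG1 and -1.68 for PGAM1.

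The authors' processed values gave a weaker picture of the same genes. There, limma called 974 of 14534 genes, 6.7% (3.68% higher and 3.02% lower), and 4 of the 34 members, 2 in each direction. PGAM1 fell by 0.63 (limma adjusted p = 0.00694) and BNIP3 by 0.44 (limma adjusted p = 0.0250), while NDRG1 rose by 0.56 (limma adjusted p = 0.0209) and ARRDC4 was higher, as given above. For TPI1 the change was -0.26, for PGK1 -0.295, for LDHA -0.37, for PDK3 -0.33 and for SLC2A1 -0.31, with limma adjusted p from 0.086 to 0.202. ALDOC and ANKRD37 were 0.11 and 0.04, with limma adjusted p of 0.788 and 0.938, so neither fell in that table. HK2 was at 0.33 (limma adjusted p = 0.0934), PFKM at -0.29, ENO1 at -0.08, ENO2 at -0.23, PFKFB4 at -0.26 and GAPDH at 0.13, none of which passed. The median over the glycolytic enzymes was -0.09, beside -0.01 over all genes.

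Over 4682 bright kept probes the changes of the 2 tables correlated at r = 0.67, with a slope of 0.34 for processed values on bead values. Over the 55 kept probes of the members r was 0.47 and the slope 0.24, and 31 had the same sign. Probes share their arrays, so these values are descriptions. For the processed values the log base and the reference of centring are unknown here. Deviations of an array from its group mean did not correspond between the tables: same-numbered arrays correlated at -0.485 to 0.113, while TIC10 replicate 3 of the bead table correlated at 0.435 with TIC10 replicate 2 of the processed table. Leaving out DMSO replicate 3 of the processed table may therefore leave out another array, and gave 2 members higher and 1 lower of 34, beside 2.68% of all genes higher and 1.78% lower, 4.46% in all.

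Probe by probe, limma called 2 of the 55 kept member probes higher, both of HK2, and 19 lower, beside 8.66% and 9.31% of all kept probes, 18% in all. Of the 31 kept probes of glycolytic enzymes, 2 were higher and 14 lower. In the processed values 3 member probes were higher and 6 lower, beside 4.53% of all kept probes called.

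**Figure D4:**
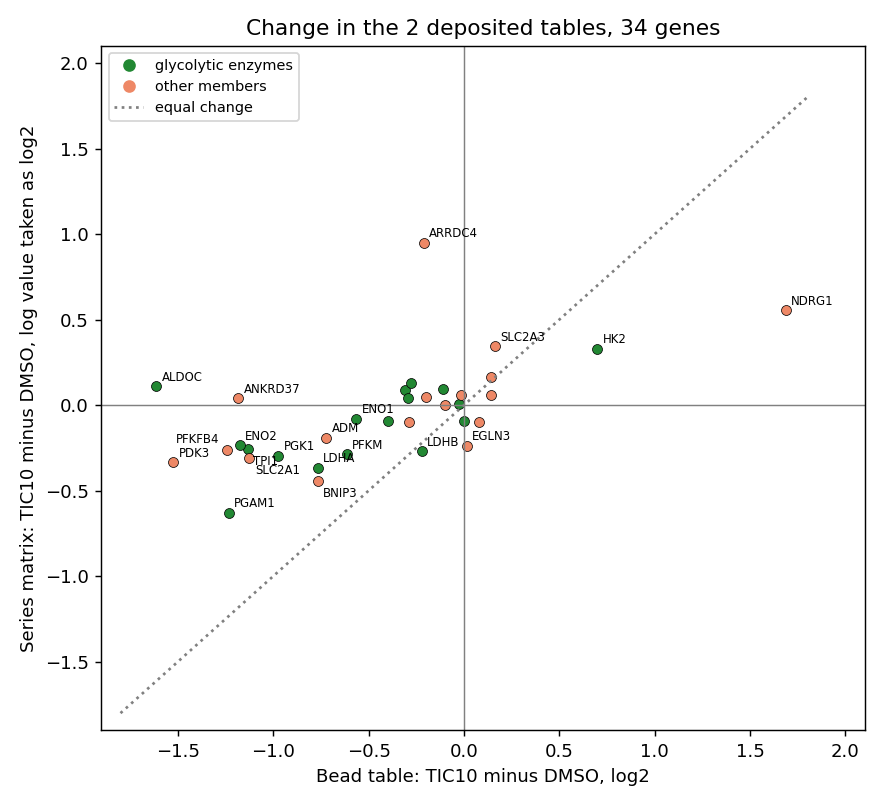
TIC10 minus DMSO change of each tested gene in the bead table (horizontal axis, log2) against that in the authors' processed values (vertical axis, log units as deposited). Most genes lie closer to 0 vertically than horizontally, with ALDOC at -1.61 and 0.11 and ARRDC4 at -0.21 and 0.95 furthest from a shared direction.

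Of 19 further tested genes of glycolysis and gluconeogenesis, 2 rose and 3 fell, with a median of -0.03. That share was close to the 23.8% called over all genes. PCK2, the mitochondrial enzyme that makes phosphoenolpyruvate, rose by 1.76 ± 0.11 (limma adjusted p = 0.000229), and by 2.66 in the processed values, although the mean of its probes gave 0.99. HKDC1, a hexokinase relative, rose by 1.04 ± 0.10 (limma adjusted p = 0.000896). Among 6 pentose phosphate genes PGLS rose by 0.85 (limma adjusted p = 0.0154) and TALDO1 fell by 0.60 (limma adjusted p = 0.0349). Among 10 genes of pyruvate entry into mitochondria PDHA1 fell by 0.50 and PDHB by 0.46, these 4 being all the calls in those lists. None of the 4 passed in the processed values (limma adjusted p from 0.0738 to 0.961), where TALDO1 was at 0.02. The mean of its probes gave TALDO1 -0.30 (limma adjusted p = 0.0807). With one-median scaling PGLS was at 0.40 (limma adjusted p = 0.454). Of 7 further transporters 2 fell, where 13.4% of all genes were called lower and 23.8% in either direction. SLC2A6 fell by 1.09 and SLC2A12 by 0.74, with limma adjusted p of 0.00212 and 0.0158. In the processed values they were at -0.36 and -0.15, and neither passed (limma adjusted p = 0.205 and 0.562).

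Of 16 genes of the HIF machinery, 5 fell and 1 rose, beside 13.4% of all genes lower and 10.4% higher. EPAS1, the HIF-2 alpha subunit, was the one that rose, by 0.48 ± 0.13 (limma adjusted p = 0.0389), and it is named outside the rule, after its value was seen. The EPAS1 call was lost when any array other than DMSO replicate 3 was left out, with limma adjusted p from 0.0840 to 0.117. With one-median scaling EPAS1 changed by 0.04 (limma adjusted p = 0.940), and in the processed values by -0.04. HIF1A itself changed by 0.10 and ARNT by 0.00, with limma adjusted p of 0.702 and 0.982. CITED2, which competes with HIF for its coactivator, fell by 0.81 ± 0.12 (limma adjusted p = 0.00435), and HIF1AN, the asparaginyl hydroxylase that restrains HIF, fell by 0.51 (limma adjusted p = 0.0106). RBX1, a subunit of the ligase that marks HIF1A for destruction, fell by 0.50 (limma adjusted p = 0.0157). In the processed values CITED2, HIF1AN and RBX1 were at -0.323, 0.135 and -0.207, and none passed (limma adjusted p from 0.237 to 0.595). With one-median scaling HIF1AN and RBX1 did not pass either (limma adjusted p = 0.0709 and 0.0798). EGLN1, a HIF prolyl hydroxylase also named outside the rule, fell by 0.37 ± 0.10 (limma adjusted p = 0.0369). It was the 1 gene of this list called in the processed values (-0.41, limma adjusted p = 0.0323). With one-median scaling it passed too (-0.70, limma adjusted p = 0.0229). Its bead-table call was lost when any array other than DMSO replicate 3 was left out (limma adjusted p from 0.0679 to 0.114). Of the MondoA and MLX factors, MLXIP (MondoA) failed the filter, and MLX and MLXIPL changed by 0.38 and 0.15 without passing (limma adjusted p = 0.0796 and 0.802).

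A longer list of 27 tested hypoxia targets outside the 38 had 3 higher and 4 lower, with a median of -0.14, again close to the 23.8% of all genes. DDIT4, an inhibitor of mTORC1, rose by 2.39 ± 0.26 (limma adjusted p = 0.00139), and STC2, a secreted glycoprotein, by 1.98 ± 0.07 (limma adjusted p = 9.15e-05). Both also rose in the processed values, by 1.81 and 1.33. AK4, a mitochondrial adenylate kinase, fell by 0.74 ± 0.08 (limma adjusted p = 0.00139), and the mean of its probes gave -0.39. In the processed values AK4 was at -0.29 and did not pass (limma adjusted p = 0.150). There 3 genes of this list were called higher and 1 lower, beside 3.68% and 3.02% of all genes.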

How the data were processed

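Total RNA of 6 samples, 3 per treatment, was labelled as biotinylated cRNA and hybridized to Illumina bead arrays, per the labels. The deposited bead table held an intensity per probe that the authors describe as not normalized, for 47319 probes, with no detection p-values. The authors' processed values, deposited in the series matrix, were taken as log2 values, while how they were scaled and centred, and the log base, is unknown here. The Control columns of the bead table were matched to DMSO replicates by number alone.

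Intensities were background-corrected (normexp, offset 50), quantile normalized and taken to log2 in R 4.3.3 with limma 3.58.1. Probes above percentile 40 of their array on at least 3 arrays were kept (29441). Probes with 1 symbol in the array annotation were named, and the brightest kept probe stood for each gene. The groups were compared by limma's two-sided moderated test (lmFit, then eBayes), and p-values were adjusted by Benjamini-Hochberg over all 14534 genes, with 0.05 as threshold. An exact permutation test of 3 arrays against 3 cannot go below p = 0.1. The number of arrays limits the precision. Steps were tested on simulated data with independent noise of capped spread and no outlying array. That check does not cover the departures of DMSO replicate 3.

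The members and lists were chosen with earlier results of these data known. Every member is named. From each further list, up to 3 called genes with the largest change are named. HIF1A, ARNT, EPAS1, EGLN1 and the MondoA and MLX factors are named besides. The 18 alternatives were leaving out each array, no background correction (offset 16), one-median scaling, cyclic loess, no filter, a stricter filter (percentile 60 on 6 arrays), the mean of kept probes, an intensity trend with robust eBayes, array weights, a replicate block, the processed values with all arrays and without DMSO replicate 3, and one-median scaling without DMSO replicate 3. Promoters came from the RefSeq table of GRCh38.p14, first start listed per gene.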

Additional observations from a re-analysis of the deposited data

How the results depend on the processing

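With all 6 arrays limma called 3463 genes, 15 of the 34 tested members, 10 of 17 glycolytic enzymes and 2 of 8 other hypoxia genes. Leaving out 1 array at a time gave 2068 to 5126 genes, 9 to 20 members, 8 to 11 glycolytic enzymes and 0 to 5 other hypoxia genes, with the highest gene and member counts when DMSO replicate 3 was out. Array weights gave 6013 genes and 5 other hypoxia genes. Scaling to one median gave 2311 genes and 4 other hypoxia genes. With DMSO replicate 3 also out it gave 4537 of 14534 genes, 1111 higher and 3426 lower, with 23 members and 5 other hypoxia genes. The median change of all genes was -0.07 in that fit. Without a filter, limma called 3322 of 20046 genes but 0 other hypoxia genes, 4 of that list having an unadjusted p under 0.05. The authors' processed values gave 974 genes, 4 members and 1 glycolytic enzyme, and without their DMSO replicate 3 they gave 648, 3 and 1, with 1 other hypoxia gene.

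No background correction, cyclic loess, the stricter filter, the mean of kept probes and the intensity trend gave 3189 to 3509 genes, 13 to 15 members, 8 to 10 glycolytic enzymes and 2 to 3 other hypoxia genes. The 3189 came from the stricter filter, which tested 9859 genes and 31 members in place of 14534 and 34, so its share of all genes was higher.

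Of the genes called in either table, signs turned in the authors' processed values, with all arrays and without DMSO replicate 3, for ALDOC (0.111 and 0.206), GAPDH (0.129 and 0.166), ANKRD37 (0.041 and 0.099) and ARRDC4 (0.949 and 0.834). SLC2A3 was -0.50 with one-median scaling and DMSO replicate 3 out. Members called in neither table also turned sign there, among them GPI, PFKP, ALDOA, P4HA1, TXNIP and EGLN3, and 7 glycolytic enzymes were above 0 in place of 1. The cause was not tested.

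Same-numbered DMSO and TIC10 arrays deviated together at r = -0.081, 0.133 and 0.002, so the numbers were not taken as pairs, and DMSO replicate 1 correlated best with TIC10 replicate 3. With the replicate number as a block, 2876 genes, 13 members, 9 glycolytic enzymes and 1 other hypoxia gene were called. Dim probes such as PDK1, TXNIP and EGLN3 lie near background, which limits what can be read from them.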
